A study of Rattus norvegicus with 6 samples.

Results

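The genes described here build the transmitter content of synaptic vesicles in glutamate and GABA cells: *Slc17a6*, *Slc17a7* and *Slc17a8*, which encode the vesicular glutamate transporters VGLUT2, VGLUT1 and VGLUT3, *Slc32a1*, which encodes the vesicular GABA and glycine transporter, and *Gad1* and *Gad2*, which encode the glutamate decarboxylases GAD67 and GAD65. They were chosen by name, as all probes annotated with 1 of these 6 symbols. All 6 were on the array, with 8 of its 35129 probes, among 12167 genes that had a single-symbol probe. *Slc17a6* and *Gad2* had 2 probes each and the other genes 1.

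The arrays carried tissue of adult male Sprague-Dawley rats called normal in the labels, untreated and unmodified as far as these say. The pineal gland had 2 arrays, with a single array for each of 4 other tissues, namely subcommissural organ, subfornical organ, ependyma of the third ventricle and, for comparison, total brain. The dissected structures were taken by laser capture microdissection, in which a laser fuses chosen cells of a section to a film. For each ventricular structure 2 units were pooled, which the labels do not call animals, and total brain was a pool of rat brains. Per the labels, 3 ng of RNA was amplified in 2 rounds for each array and read in 1 colour, Cy5.

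Glutamate becomes a transmitter when one of the vesicular glutamate transporters loads it into vesicles, using the proton gradient of the vesicular ATPase. GABA is formed from glutamate by either decarboxylase and loaded by the product of *Slc32a1*. In the forebrain, *Slc17a7* is typical of cortical and hippocampal neurons and *Slc17a6* of thalamic and hypothalamic ones. Pinealocytes, the melatonin-secreting cells of the pineal gland, are known to hold small vesicles that store glutamate.

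The levels fell into 3 patterns. *Slc17a6* and *Gad1* were read on every array, with total brain and the pineal gland at the top. For *Slc17a6* the ependyma was close to the pineal gland. *Slc17a7* was higher in the pineal gland than in total brain and near background in the other structures. *Slc32a1* and *Gad2* were highest in total brain and near background on both pineal gland arrays. *Slc17a8* was near background on all 6 arrays. Levels are the deposited intensities, on a linear scale with array medians between 1.04 and 1.07, and a value under 1.05, the median of all values on the arrays, is called near background here. Levels of different probes cannot be set against each other, so each gene is described across tissues only.

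**Figure D1:**
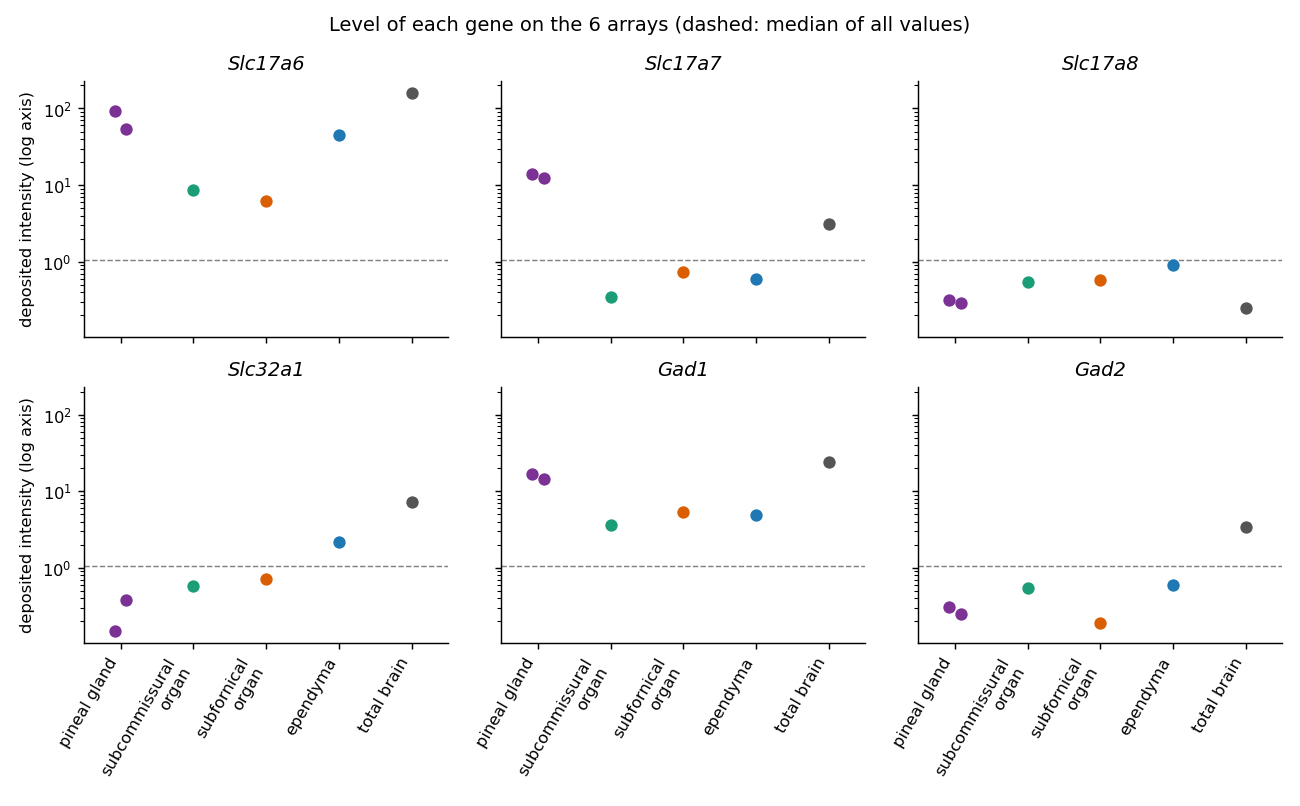
Deposited intensity (log axis) of the probe used for each gene, by tissue, with 1 point per array and 2 for the pineal gland. The dashed line is the median of all values, 1.05. *Slc17a7* stands at 14.0 and 12.3 in the pineal gland, above all other tissues, whereas *Slc32a1* and *Gad2* are under the line there.

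The pair of pineal gland arrays was the only measure of spread. Over 8007 genes measured in the pair, 95% of the differences between both arrays were under 1.43 on the log2 scale, or 2.69-fold, and neighbouring tissues in the order of a gene's levels are said to differ only past that size. Marker genes were checked against the labels. All 8 pineal genes on the array were above background on both pineal gland arrays, with summed intensities of 1599 and 1249, against 27.5 in total brain. Of 7 genes of ciliated ependyma, 6 were above background in all 3 ventricular structures (both organs and the ependyma), and *Foxj1* was near background on all 6 arrays. Of the 4 subcommissural genes on the array, *Cuzd1* and *Creb3l4* were above background in the subcommissural organ alone. *Msx1* was above background on all 6 arrays, at 241 in the subcommissural organ and 204 in the ependyma. *Pax6* was highest in the subcommissural organ, at 26.7. It was also above background in the pineal gland, at 5.18 and 2.05, and the ependyma, at 1.47. Of the 4 subfornical genes on the array, *Agtr1a* and *Scn7a* were higher in the pineal gland, at 3.80 ± 1.62 and 13.7 ± 6.09 (SD, n = 2), than in the subfornical organ, at 1.96 and 3.41, while *Casr* was highest in the subfornical organ, at 6.42, so that list marked its tissue weakly. *Snap25* and *Slc1a2*, which brain tissue expresses widely, stood at 0.570 and 0.249 in total brain, so a low value of a probe does not show that its gene is silent.

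Limma compared the pineal gland with total brain and with each other structure, with all 6 arrays in the fit. Only the pineal gland pair gave a residual, with 1 degree of freedom, and the single arrays were taken to vary as that pair did. The labels do not give the pair as different animals. The p-values therefore cover the spread of these arrays alone, and that spread may be technical. The moderated standard error was the same for all genes, 0.73 against total brain, so a call was in effect a difference of at least 1.83 on the log2 scale, or 3.54-fold. With a higher floor for low values, at the 25th percentile, the spread differed between genes and limma called 0 genes in all 4 pineal gland comparisons, while between 2126 and 2489 genes had an unadjusted p under 0.05 and between 1490 and 1773 were at least 4-fold different. All limma calls below end under that setting.

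*Slc17a7*, the vesicular glutamate transporter VGLUT1, was the gene of the 6 whose pineal gland level stood above all other tissues. It was read at 14.0 and 12.3 on the pineal gland arrays, 0.344 in the subcommissural organ, 0.742 in the subfornical organ, 0.588 in the ependyma and 3.13 in total brain. Both pineal gland arrays lay above every other array, and the 3 ventricular structures were near background. The pineal gland level was 13.1 ± 1.21 (SD, n = 2). Against total brain the gene rose 4.18-fold in the pineal gland, a log2 difference of 2.06 ± 0.73 (SE) with an adjusted p of 0.022 by limma. The call does not hold without the filter on low values, where the adjusted p was 0.107, and the difference without pineal gland array 1 was 1.97. In pineal gland against the other structures the gene rose by at least 12.5-fold each time. The log2 difference was 5.25 from the subcommissural organ (adjusted p = 1.4e-11 by limma), 4.14 from the subfornical organ (3.7e-07) and 4.48 from the ependyma (1.6e-08). In these comparisons *Slc17a7* passed the filter only through the pineal gland, so its direction was fixed and the p-values are no independent support. In the order of levels the pineal gland differed from total brain, and total brain from the subfornical organ, by more than the spread of the pair. The subfornical organ, ependyma and subcommissural organ did not differ beyond it. In such bulk samples, here and for all genes below, fewer cells of a type and less RNA per cell cannot be told apart.

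*Slc17a6*, VGLUT2, was read on every array. Its level was 94.1 and 53.5 in the pineal gland, 8.63 in the subcommissural organ, 6.26 in the subfornical organ, 44.8 in the ependyma and 161 in total brain. Total brain was the highest, the pineal gland and the ependyma lay between, and both other organs were lowest. The pineal gland level, 73.8 ± 28.7 (SD, n = 2), was 2.27-fold under total brain, a log2 difference of -1.18 ± 0.73 that did not pass limma (adjusted p = 0.259). Against the ependyma, too, the pineal gland did not pass, with a log2 difference of 0.66 and an adjusted p of 0.659. The gene rose 8.23-fold in the pineal gland against the subcommissural organ (log2 difference 3.04, adjusted p = 2.5e-04 by limma) and 11.3-fold against the subfornical organ (3.50, adjusted p = 2.5e-05 by limma). Without the filter on low values the first of these calls is lost, with an adjusted p of 0.053. The only neighbours in its order that differed beyond the spread of the pair were the ependyma and the subcommissural organ, 2.38 apart on the log2 scale.

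The second *Slc17a6* probe gave the same order of tissues. It was read at 38.4 and 21.5 in the pineal gland, 2.28 in the subcommissural organ, 1.95 in the subfornical organ, 12.9 in the ependyma and 57.7 in total brain. Its log2 differences from total brain were -1.01 in the pineal gland, -4.66 in the subcommissural organ, -4.89 in the subfornical organ and -2.16 in the ependyma. The brighter probe gave -1.18, -4.22, -4.68 and -1.85, so the ependyma was past 4-fold by the dimmer probe and not by the brighter one. The 2 probes of *Gad2* did not match in this way. The brighter was read at 0.310 and 0.254 in the pineal gland, 0.541 in the subcommissural organ, 0.193 in the subfornical organ, 0.604 in the ependyma and 3.42 in total brain. The dimmer stood at 0.141 and 0.147 in the pineal gland, 0.495 in the subcommissural organ, 0.909 in the subfornical organ, 0.278 in the ependyma and 1.02 in total brain, near background throughout, so its order of tissues is not read.

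**Figure D2:**
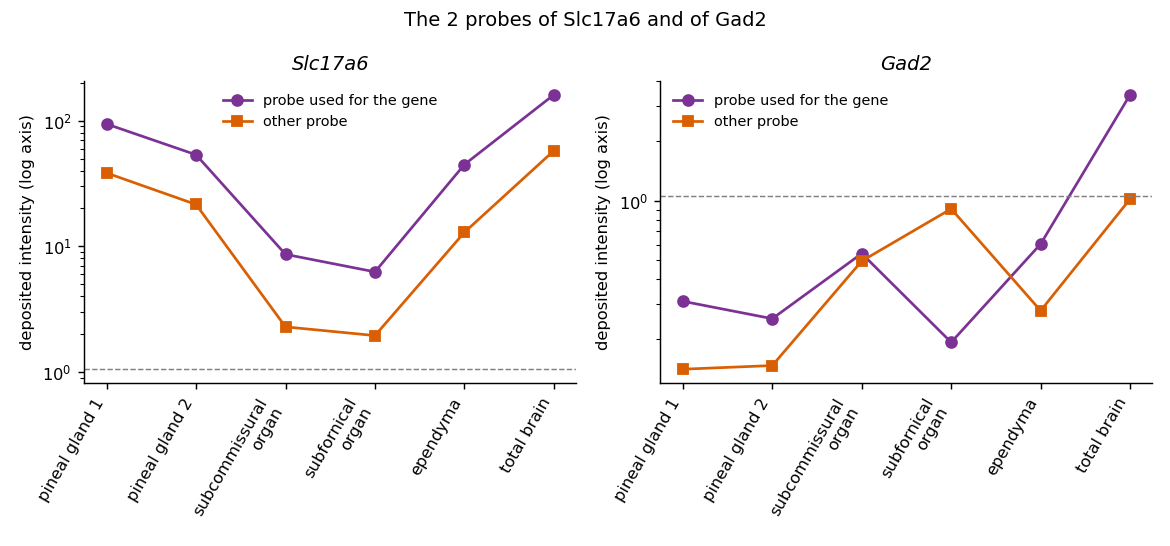
Deposited intensity (log axis) of both probes of *Slc17a6* and of *Gad2* on the 6 arrays, with the median of all values dashed. The lines of *Slc17a6* run nearly in parallel, with 6.26 and 1.95 in the subfornical organ, against 161 and 57.7 in total brain, whereas those of *Gad2* cross and only the total brain value of the brighter probe, 3.42, lies above the dashed line.

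*Slc17a8*, VGLUT3, which other neurons use beside their main transmitter, had a probe that stayed near background. It was read at 0.321 and 0.288 in the pineal gland, 0.545 in the subcommissural organ, 0.577 in the subfornical organ, 0.919 in the ependyma and 0.247 in total brain. With no array at 1.05, the gene passed the filter in none of the comparisons, and its order of tissues is not read.

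*Slc32a1*, the vesicular GABA transporter, was read above background in total brain and the ependyma. Its level was 0.149 and 0.379 in the pineal gland, 0.573 in the subcommissural organ, 0.720 in the subfornical organ, 2.20 in the ependyma and 7.33 in total brain. All arrays of the 3 circumventricular organs were near background. In the pineal gland the gene fell by at least 6.98-fold against total brain (adjusted p = 3.5e-10 by limma) and by at least 2.10-fold against the ependyma (adjusted p = 1.0e-04 by limma). Those bounds set the near-background side at 1.05. *Slc32a1* passed the filter only through total brain in the first comparison and only through the ependyma in the second. Its direction was therefore fixed, and these p-values are no independent support. The measured log2 differences were -4.95 and -3.21. They depended on the pineal gland array used, and were -4.27 without array 1 and -5.62 without array 2 against total brain, and -2.54 and -3.89 against the ependyma. Under the alternatives in which limma made calls, the adjusted p of the second ranged up to 0.067, and the call was lost after quantile normalization (0.066) and without the filter (0.067). Total brain was 1.74 above the ependyma on the log2 scale, which is more than the spread of the pineal gland pair. The difference, ependyma minus total brain, was -1.32 after quantile normalization and -1.28 with a common 75th percentile. Each was within the spread of the pair under its own scaling, 1.40 and 1.34. The ependyma was at least 1.07 above the subfornical organ, which is less than that spread.

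The sequences before the start sites of the vesicular transporters read above background are shown because their levels differ in order between tissues, with *Slc17a7* highest in the pineal gland and *Slc17a6* and *Slc32a1* highest in total brain. They are RefSeq sequences of the rat build GRCr8, on the plus strand and 5′ to 3′, and capitals mark the motif TGACG on either strand. The first is chr1:104785955-104786171, the bases of its 250-base window that lie before the gene's record. The next is chr1:110348197-110348446 and the last chr3:167686995-167687244.
Slc17a7: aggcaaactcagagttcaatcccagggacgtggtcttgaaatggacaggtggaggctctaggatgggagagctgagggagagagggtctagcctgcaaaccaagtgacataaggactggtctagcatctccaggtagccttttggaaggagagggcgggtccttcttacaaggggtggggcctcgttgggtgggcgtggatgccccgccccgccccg
Slc17a6: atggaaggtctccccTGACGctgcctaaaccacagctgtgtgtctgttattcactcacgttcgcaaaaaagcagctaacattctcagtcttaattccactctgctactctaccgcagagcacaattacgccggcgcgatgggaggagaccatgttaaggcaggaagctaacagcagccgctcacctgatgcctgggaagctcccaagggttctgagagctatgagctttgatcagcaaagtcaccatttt
Slc32a1: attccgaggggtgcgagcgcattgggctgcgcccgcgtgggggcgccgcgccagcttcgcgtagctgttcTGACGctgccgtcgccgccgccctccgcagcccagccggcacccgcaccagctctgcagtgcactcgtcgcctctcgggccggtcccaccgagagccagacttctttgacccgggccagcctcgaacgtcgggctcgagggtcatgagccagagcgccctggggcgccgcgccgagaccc

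All 6 genes had a window of 250 bases before the start site, which was searched on both strands for 3 motifs. TAATCC, the core bound by the pineal homeodomain factors Crx and Otx2, was in 0 of the 6 windows and in 6.34% of 33469 windows in the table. TGACG, the core of a cAMP response element, was in the windows of *Slc17a6* and *Slc32a1* and in 18.2% of all windows. The full element TGACGTCA, which contains that core, was in 0 of the 6 and in 1.59% of all windows. The G and C content was 61.2% for *Slc17a7*, 50.8% for *Slc17a6* and 73.6% for *Slc32a1*, against a median of 51.2%. A match is a string of letters and says nothing of binding. The *Gad1* and *Slc17a8* windows overlapped their own gene records by 192 and 250 bases, and are not shown.

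*Gad1*, which encodes the decarboxylase found through the whole neuron, was read on every array. Its level was 17.0 and 14.6 in the pineal gland, 3.66 in the subcommissural organ, 5.37 in the subfornical organ, 4.96 in the ependyma and 24.0 in total brain. Total brain and the pineal gland were high and did not differ beyond the spread of the pair, while the 3 ventricular structures lay together at lower levels. The pineal gland level, 15.8 ± 1.69 (SD, n = 2), was 1.53-fold under total brain, a log2 difference of -0.61 ± 0.73 (SE) with an adjusted p of 0.625 by limma. That difference was -0.03 after quantile normalization and with the arrays scaled to a common 75th percentile. Against the subcommissural organ the gene rose 4.31-fold in the pineal gland, a log2 difference of 2.11 with an adjusted p of 0.019 by limma, and 0.120 without the filter. Against the subfornical organ and the ependyma the log2 differences were 1.55 and 1.67, with adjusted p-values of 0.124 and 0.089 by limma. The second became 0.045 with a filter at the 75th percentile.

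*Gad2*, which encodes the decarboxylase of nerve terminals, did not follow *Gad1* in the pineal gland. By its brighter probe it fell in the pineal gland by at least 3.25-fold against total brain, a log2 difference of -3.61 with an adjusted p of 9.4e-06 by limma. Total brain, at 3.42, was the only array above background, so the order of the other tissues is not read. The gene passed the filter only through total brain, so the direction of that call was fixed and its p-value is no independent support. Both pineal gland arrays were near background for *Gad2* and *Slc32a1* and well above it for *Gad1*. The subcommissural and subfornical organs had *Gad1* above background, at 3.66 and 5.37. There *Gad2*, at 0.541 and 0.193, and *Slc32a1*, at 0.573 and 0.720, were near background. In these organs *Gad1* was 6.57-fold and 4.48-fold lower than in total brain, and *Gad2* at least 3.25-fold. A difference between *Gad1* and *Gad2* is therefore not shown there.

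Markers of GABA neurons and of the habenula, which lies beside the pineal gland, were set beside the *Gad1* level. Of 7 GABA neuron markers on the array, 6 fell in the pineal gland against total brain by limma. The summed intensity of the 7 was 5.81 and 10.3 in the pineal gland, against 109 in total brain. It was 157 in the subcommissural organ, 136 in the subfornical organ and 89.2 in the ependyma. *Reln* made up 104 of the sum in the subcommissural organ and 122 in the subfornical organ, so these sums rest on 1 probe. The median log2 difference of the list from total brain was -1.69 in the subcommissural organ, with 2 markers at least 4-fold lower, and -1.75 in the subfornical organ, with 2 lower and *Reln* higher. *Pvalb*, *Vip*, *Calb2* and *Reln* were near background on both pineal gland arrays. They passed the filter only through total brain, so the direction of their falls was fixed. The defining habenula genes *Pou4f1* and *Gpr151* were near background on all 6 arrays. Of the 4 measured genes of that list, 2 rose in the pineal gland against total brain and 2 fell by limma. *Chrna3* and *Chrnb4* stood at 104 ± 26.9 and 74.7 ± 17.1 in the pineal gland (SD, n = 2), against 1.90 and 1.56 in total brain. *Tac1* was at 1.42 and 0.833 in the pineal gland, against 52.4 in total brain, and *Calb2* at 0.797 and 0.927, against 38.6. For glutamate neurons of the forebrain only *Camk2a* and *Neurod2* were on the array. *Camk2a* was at 0.230 and 0.772 in the pineal gland, against 22.0 in total brain, and *Neurod2* was near background on all 6 arrays.

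By limma 1 of the 5 members measured in pineal gland against total brain rose (*Slc17a7*) and 2 fell (*Slc32a1* and *Gad2*), where 7.72% of 9077 measured genes rose and 16.3% fell, 24.0% in all. At 4-fold the same 3 members were called by their measured values, where 6.83% of genes were higher and 14.4% lower, 21.2% in all. With values near background set to the median of all values, *Gad2* was at least 3.25-fold lower, so *Slc17a7* and *Slc32a1* alone were past 4-fold. Without pineal gland array 1 the log2 difference of *Slc17a7* was 1.97, which is under 4-fold. Of all limma calls against total brain 32.2% were higher, against 47.3% after quantile normalization and 55.0% with a common 75th percentile, and the median of all measured genes was -0.45, 0.03 and 0.17 on the log2 scale under these 3 scalings. *Slc32a1* and *Gad2* were measured only through total brain, so their direction was fixed once they passed the filter. The same holds for *Slc32a1*, measured only through the ependyma in that comparison, and for *Slc17a7*, measured only through the pineal gland against the 3 ventricular structures. Against the ependyma 1 of 4 measured members rose (*Slc17a7*) and 1 fell (*Slc32a1*), where 7.32% of all genes rose and 13.0% fell. Of all genes 20.3% were called. At 4-fold the same members were called by their measured values, where 6.57% were higher and 11.7% lower, 18.3% in all. With values near background set to the median of all values, *Slc32a1* was at least 2.10-fold lower there, so *Slc17a7* alone was past 4-fold. Against the subfornical organ 2 of 3 rose (*Slc17a6* and *Slc17a7*), where 7.05% of all genes did, 13.8% fell and 20.9% were called. At 4-fold the same members were called, where 6.21% were higher, 12.5% lower and 18.7% either. Of the limma calls there 33.8% were higher, against 44.7% after quantile normalization and 46.5% with a common 75th percentile. Against the subcommissural organ 3 of 3 rose (*Slc17a6*, *Slc17a7* and *Gad1*), where 9.34% of all genes did, 11.6% fell and 21.0% were called. At 4-fold these members were called too, where 8.29% were higher, 10.2% lower and 18.5% either. These comparisons share the pineal gland arrays, so they are not independent of each other.

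Total brain was also compared with the 3 ventricular structures, a single array with a single array, so these differences have no replicate check and no p-value. Here at least 4-fold counts the measured values. With values near background set to 1.05, 3 members were past 4-fold in the subcommissural organ and 3 in the subfornical organ (*Slc17a6*, *Slc32a1* and *Gad1*), and 1 in the ependyma (*Gad1*). In the subcommissural organ, a secretory gland of tall ependymal cells, all 5 measured members were at least 4-fold lower than in total brain, where 14.9% of 9126 genes were, with 8.76% higher and 23.7% in all. The share of higher genes among these was 36.9%, and 51.0% with a common 75th percentile. *Slc17a6* stood at 8.63 against 161, 18.6-fold lower, and *Gad1* at 3.66 against 24.0, 6.57-fold lower. *Slc32a1*, *Slc17a7* and *Gad2* were near background, at least 6.98-fold, 2.98-fold and 3.25-fold lower. With the 2 probes of *Gad2* averaged, its log2 difference was -1.85 instead of -2.66.

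In the subfornical organ, a sensory circumventricular organ that contains neurons, all 5 measured members were also at least 4-fold lower than in total brain, where 9.76% of 9173 genes were, with 7.23% higher and 17.0% in all. The share of higher genes among these was 42.6%, and 57.2% with a common 75th percentile. *Slc17a6* stood at 6.26 against 161 in total brain, 25.7-fold lower. Its level did not differ from that of the subcommissural organ, 8.63, beyond the spread of the pineal gland pair. *Gad1* stood at 5.37 against 24.0, 4.48-fold lower, with a log2 difference of -2.16 that was -1.87 after quantile normalization and -1.83 with a common 75th percentile. *Slc17a7*, at 0.742 against 3.13, was at least 2.98-fold lower, with a measured log2 difference of -2.08 that these scalings put at -1.95 and -1.75. For *Gad2* the log2 difference of -4.15 became -2.16 when its probes were averaged.

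In the ependyma 3 of 5 measured members were at least 4-fold lower than in total brain, where 9.51% of 9113 genes were, with 7.47% higher and 17.0% in all. The share of higher genes among these was 44.0%, against 56.1% after quantile normalization and 66.4% with a common 75th percentile. *Gad1* stood at 4.96 against 24.0, 4.84-fold lower, *Slc17a7* was at least 2.98-fold lower and *Gad2* at least 3.25-fold. *Slc17a6* and *Slc32a1* stood closer to total brain, at 44.8 against 161 and 2.20 against 7.33, which is 3.59-fold and 3.33-fold lower. With the arrays scaled to a common 75th percentile, *Gad2* alone was past 4-fold. In all 3 structures *Slc17a7* and *Gad2*, and in both organs *Slc32a1*, were measured only through total brain, so their direction was fixed by the filter.

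**Figure D3:**
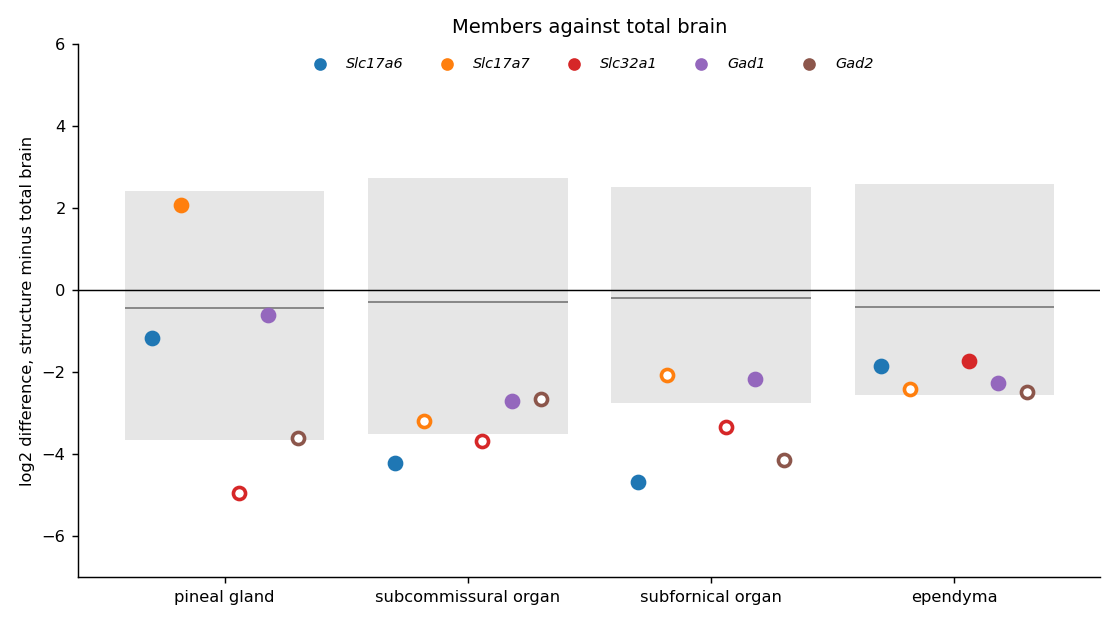
Log2 difference of each measured member from total brain (structure minus total brain) in the 4 dissected structures, with 1 colour per gene. Open circles have 1 side near background, grey bars span the 5th to the 95th percentile of all measured genes and the grey line is their median. *Slc17a7* in the pineal gland, at 2.06, is the only point above 0.

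By their median, neuron markers were lower than in total brain in all 4 dissected structures. Of the 4, the pineal gland was lowest for the neuron markers and highest for the members. The members' median log2 difference was -1.18 in the pineal gland, -3.19 in the subcommissural organ, -3.35 in the subfornical organ and -2.28 in the ependyma. With values near background set to 1.05, the members' medians in these tissues were -1.18, -2.72, -2.16 and -1.74. The 3 ventricular structures then took the same order as for the neuron markers. Of the 8 neuron markers on the array, *Snap25* and *Nefh* were near background on all 6 arrays. The summed intensity of the 8 was 215 and 150 in the pineal gland, 67.6 in the subcommissural organ, 145 in the subfornical organ and 200 in the ependyma, against 1112 in total brain. The median log2 difference from total brain over the measured markers was -5.75 in the pineal gland, -4.96 in the subcommissural organ, -3.56 in the subfornical organ and -2.62 in the ependyma. Near background were 3 of the 6 measured markers in the pineal gland and 2 in the subcommissural organ. With these set to 1.05 the medians there were -5.41 and -4.73. These markers passed the filter only through total brain, so their direction was fixed. Of 6 measured markers, 5 fell in the pineal gland by limma, where 16.3% of all genes fell. In the other structures 5, 6 and 6 were at least 4-fold lower, where 14.9%, 9.76% and 9.51% of all genes were. *Eno2*, a glycolytic enzyme of neurons and endocrine cells, was at 205 and 142 in the pineal gland, against 340 in total brain, and made up most of the sum there. Hypothalamic peptide genes were high in the ependyma, with *Oxt* at 317 against 0.535 and *Hcrt* at 188 against 6.98 in total brain. The part of neurons in the ependyma's *Slc17a6* and *Slc32a1* levels was not tested.

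The other genes that make, recycle and break down glutamate and GABA were taken from a list of 20, of which 17 were on the array. In pineal gland against total brain 14 were measured, 0 rose and 7 fell by limma, where 7.72% of all genes rose and 16.3% fell. Of these 7, *Gls2* and *Slc38a5* passed the filter only through total brain, so their direction was fixed. The list's median log2 difference was -1.59 beside -0.45 for all genes, or -1.001 with values near background set to 1.05. The widest falls belonged to plasma membrane glutamate transporters. *Slc1a3*, the astrocyte transporter GLAST, was at 16.8 and 10.8 in the pineal gland, against 201 in total brain, a log2 difference of -3.90. *Slc1a1*, a neuronal transporter, was at 2.91 and 1.55, against 32.2 in total brain, a difference of -3.93. *Glul*, the glutamine synthetase of astrocytes, fell by 2.83 and *Glud1*, glutamate dehydrogenase, by 2.36 on the log2 scale. Astrocyte markers, a list that holds *Slc1a3* itself, had 6 of 7 lower by limma, where 16.3% of all genes fell. *Gfap* was near background on both pineal gland arrays. The part of astrocytes in these falls was not tested. The aminotransferase genes *Got1* and *Got2*, which form glutamate, stood at 99.3 and 56.2 and at 221 and 151 in the pineal gland, against 132 and 184 in total brain, and neither passed the test.

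In the subcommissural organ the median of that list was -2.06 beside -0.29 for all genes. At least 4-fold lower than in total brain were 7 of 13 measured genes, where 14.9% of all genes were. They included the glutamine carriers *Slc38a1*, *Slc38a2* and *Slc38a3*, with log2 differences of -2.69, -2.66 and -2.61. In the subfornical organ 2 of 16 were lower and 1 higher, which was near background in total brain. Of all genes 9.76% were lower and 7.23% higher in that organ. The list's median was -0.16 beside -0.20 for all genes. There *Glul* stood at 303 against 506 in total brain and *Slc1a3* at 232 against 201. In the ependyma 4 of 14 were lower, where 9.51% of all genes were, with a median of -1.01 beside -0.41. *Got1* was lower than in total brain by more than 4-fold in all 3 structures, at 18.1 in the subcommissural organ, 10.1 in the subfornical organ and 25.5 in the ependyma, against 132. *Abat*, the transaminase that degrades GABA, varied little, between 4.07 and 8.67 on the 6 arrays.

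Vesicle membrane proteins and subunits of the proton pump that drives transmitter loading had 15 of 18 genes on the array. In pineal gland against total brain 14 were measured, 0 rose and 4 fell by limma, where 7.72% of all genes rose and 16.3% fell. Of these 4, *Syn1* was near background in the pineal gland and passed the filter only through total brain, so its direction was fixed. The median was -0.38 beside -0.45 for all genes. *Syp*, the vesicle protein synaptophysin, stood at 159 and 117 in the pineal gland, 6.25 in the subcommissural organ, 15.0 in the subfornical organ, 30.9 in the ependyma and 81.3 in total brain. Both pineal gland values were above all other arrays, with a difference from total brain that did not pass the test. *Syp* rose in the pineal gland by 4.45 on the log2 scale against the subcommissural organ, by 3.18 against the subfornical organ and by 2.14 against the ependyma, by limma. The genes that fell were *Sv2a*, *Syn1*, *Syn2* and the pump subunit *Atp6v1g2*, which was at 2.55 and 3.57 against 102 in total brain, a log2 difference of -5.08. The other pump subunits did not pass. *Atp6v0d1* for example was at 417 and 312 against 211 in total brain. At least 4-fold lower than in total brain were 6 of 14 genes in the subcommissural organ (median -1.79). The subfornical organ had 5 such genes (median -1.84) and the ependyma 3 (median -1.44). Of all genes 14.9%, 9.76% and 9.51% were at least 4-fold lower in these structures.

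Other vesicular transporters and relatives of the *Slc17* family had 9 of 12 genes on the array. In pineal gland against total brain 5 were measured and 2 fell by limma, where 16.3% of all genes fell. *Slc30a3*, the zinc transporter of glutamate vesicles, was at 2.57 and 3.72 in the pineal gland, 0.788 in the subcommissural organ, 17.0 in the subfornical organ, 43.8 in the ependyma and 135 in total brain. The log2 difference of the pineal gland from total brain was -5.44, on the other side of 0 from that of *Slc17a7*. *Slc6a9*, a glycine transporter of astrocytes, fell by 2.01. *Slc17a5*, the lysosomal sialic acid transporter of the same family, was at 9.99 and 9.20 in the pineal gland and 19.4 in total brain, and did not pass. The monoamine transporter gene *Slc18a2* was at 1.39 and 1.60 in the pineal gland and 2.86 in the ependyma, against 0.481 in total brain. Of 4 measured genes in the subcommissural organ 1 was at least 4-fold lower than in total brain, where 14.9% of all genes were. In the subfornical organ 2 of 6 were lower and 1 higher, where 9.76% of all genes were lower and 7.23% higher. In the ependyma 1 of 6 was higher, where 7.47% of all genes were. With values near background set to 1.05, neither higher gene was past 4-fold.

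**Figure D4:**
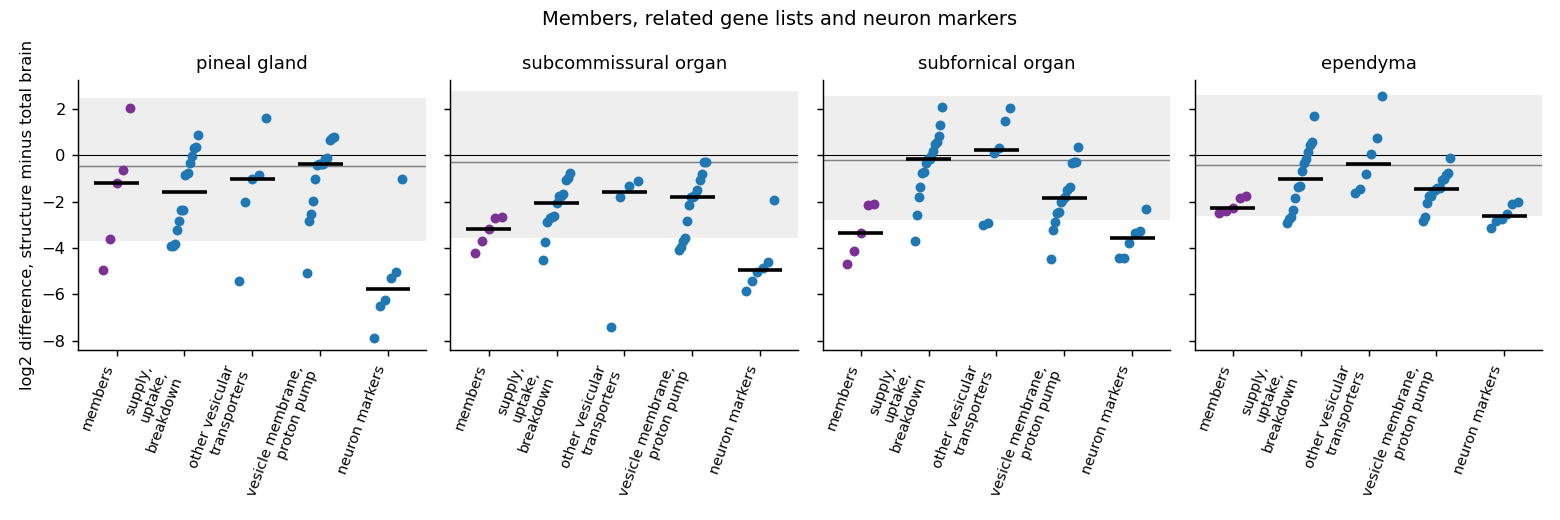
Log2 differences from total brain (structure minus total brain) of the measured members, 3 related gene lists and neuron markers, 1 point per gene, with the median of each list as a black bar. The grey band spans the 5th to the 95th percentile of all measured genes. In the pineal gland the neuron markers have a median of -5.75 and the vesicle and pump genes -0.38.

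Genes with the most similar pattern were sought among 6835 others that reached the 75th percentile, an intensity of 6.04, on at least 1 array. Likeness was the root-mean-square difference of log2 intensity over the 6 arrays, after centring each gene on its mean, and is a description with no test. *Slc17a8* and *Gad2* did not reach that level. The genes nearest to *Slc17a7* were *Crtac1*, *Ptprn*, *Lpl*, *Asic4* and *Neurod1*, at distances of 0.36 to 0.53. *Ptprn*, which encodes a membrane protein of dense-core secretory vesicles, stood at 247 and 183 in the pineal gland, against 57.0 in total brain, and *Neurod1*, a transcription factor of neurons and endocrine cells, at 12.2 and 4.81 against 0.966. The genes nearest to *Slc17a6* were *Ppfia4*, *Rgs4*, *Napb*, *Ndrg3* and *Stc1*, at 0.36 to 0.49. *Napb*, which encodes a SNAP protein of membrane fusion, was at 92.8 and 40.0 in the pineal gland, 11.0 in the subcommissural organ, 11.8 in the subfornical organ, 39.5 in the ependyma and 172 in total brain.

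The genes nearest to *Gad1* were *Olfm1*, *Lamb3*, *Ndufaf5*, *Ecm1* and *Evl*, at 0.23 to 0.30, and those nearest to *Slc32a1* were *Sgip1*, *Vsnl1*, *Gng3*, *Ndrg4* and *Ccdc97*, at 0.20 to 0.40. *Sgip1*, which encodes a regulator of endocytosis, was the closest of all, at 0.380 and 0.851 in the pineal gland, 1.35 in the subcommissural organ, 2.43 in the subfornical organ, 6.17 in the ependyma and 17.6 in total brain. Among the members themselves *Gad1* and *Slc17a6* were the closest pair, 0.99 apart, with *Gad1* ranked 99 of 6835 by nearness to *Slc17a6*. *Slc17a7* and *Slc32a1* were the farthest pair, 3.26 apart, at rank 6221. *Slc32a1* ranked 5125 for *Slc17a6*, and *Gad1* ranked 4572 for *Slc32a1*. *Slc32a1* was above background on only 2 of the 6 arrays and *Slc17a7* on 3. The distances, ranks and nearest genes of *Slc32a1* and *Slc17a7* therefore rest in part on values near background.

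**Figure D5:**
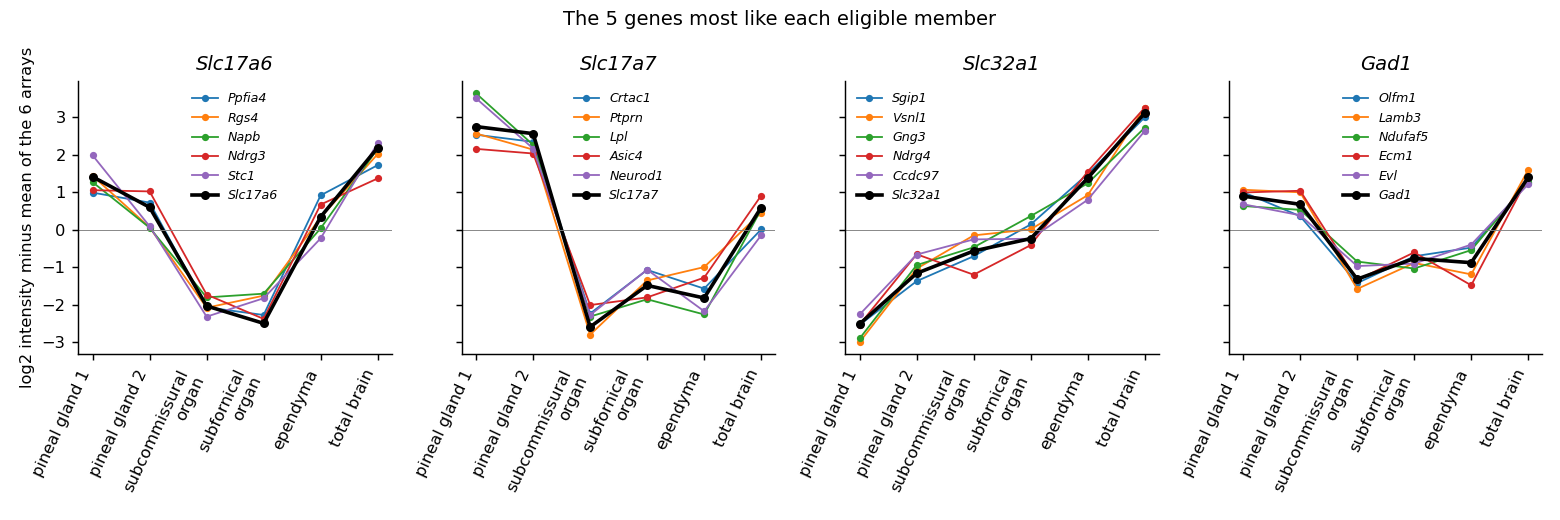
Log2 intensity on the 6 arrays minus each gene's mean over them, for the 4 eligible members (black) and the 5 genes most like each (colours). The *Slc17a7* group is highest on both pineal gland arrays, the *Slc32a1* group is lowest on the first pineal gland array and highest in total brain, and the *Slc17a6* and *Gad1* groups are high in both tissues. In the ependyma the *Slc17a6* group is also higher than in the subcommissural and subfornical organs. On the first pineal gland array the whole *Slc32a1* group is near background.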

How the data were processed

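Gene expression was measured on 6 one-colour arrays. The authors' deposited table holds linear intensities, as read from the values, with 1 for each probe on each array. The background correction, scaling, scanner and genome build are not given in the sources used here. Values of -9999 were taken as missing. Array medians lay between 1.04 and 1.07. No detection call was used and the number of arrays limits the precision.

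Probes were named through the platform annotation, 16865 of them with 1 symbol, and 16836 of these were found in the current RefSeq gene table. Values under 0.142, the 5th percentile, were raised to it before log2 was taken, and 1 probe per gene was used, the brightest by mean. A gene counted as measured where the higher side reached 1.05, the 50th percentile. Where the lower side was under 1.05, folds are bounds against it, written as at least. limma 3.58.1 in R 4.3.3 (lmFit, eBayes, two-sided, Benjamini-Hochberg over all measured genes, adjusted p under 0.05) tested the pineal gland against each tissue. Differences between single arrays were counted at 4-fold. The steps were tested on simulated data. Python 3.11.15 made the other tables.

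The members, lists and alternatives were chosen with earlier results of these data known. List genes were named where at least 4-fold from total brain, or for contrast with the list median, and genes most like a member were the 5 nearest. *Eno2*, *Glul* in the subfornical organ, *Syn2*, *Slc18a2*, *Got1*, *Got2*, *Abat*, *Syp*, *Atp6v0d1*, *Slc17a5* and the tissue markers were named after their values were seen. List medians and 4-fold counts with values near background set to 1.05 were added after the results were seen.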

Additional observations from a re-analysis of the deposited data

Results flagged for a closer look

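*Slc17a7* stood on opposite sides of total brain in different structures, on every array of them. Its log2 difference from total brain was 2.06 in the pineal gland, against -3.19 in the subcommissural organ, -2.08 in the subfornical organ and -2.41 in the ependyma. Its level was near background in these 3 structures, so only bounds hold there: at least 2.98-fold lower than total brain, and at least 12.5-fold lower than the pineal gland. The limma calls between the pineal gland and these structures, with measured differences of 5.25, 4.14 and 4.48, are no independent support, since the gene passed the filter only through the pineal gland. They rest on 1 probe and, for each other structure, on 1 array.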

How the results depend on the processing

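All 202 values of single members under the alternatives kept their direction. Among values tested by limma 15 lost their call and 1 gained one. Among untested values 12 moved by more than 0.46 on the log2 scale, the SD of a pineal gland array, and the other 174 did neither. Of 72 such values of members past 4-fold in the ventricular structures against total brain, 8 were no longer so, 4 of them with a common 75th percentile, 3 after quantile normalization and 1 with probes averaged. Without pineal gland replicate 1 or 2 the number of genes at least 4-fold different was 1923 to 2129 against total brain, 1729 against the ependyma, 1791 to 1793 against the subfornical organ and 1671 to 1834 against the subcommissural organ. The members past 4-fold were then 2 to 3, 2, 2 and 2 to 3. No paired analysis was possible because only the pineal gland arrays carry replicate numbers. The planned floor at the 1st percentile was not run, since that percentile, -0.0359, has no log.

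With the floor at the 25th percentile limma called 0 genes and 0 members in each pineal gland comparison, where 2489 genes (against total brain), 2126 (ependyma), 2222 (subfornical organ) and 2157 (subcommissural organ) had an unadjusted p under 0.05. The fit's standard error was then no longer the same for all genes. After quantile normalization limma called 1221 genes against total brain, 1115 against the ependyma, with 1 member, and 1045 against the subfornical organ. The main counts were 2177, 1822 and 1881. Without a filter on low values it called 1018 against total brain, 731 against the ependyma, 635 against the subfornical organ and 736 against the subcommissural organ, where the main count was 1854, with 1 member for the ependyma and 1 for the subcommissural organ.

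With the filter at the 75th percentile fewer genes were tested, and 1245 were at least 4-fold different in pineal gland against total brain, 1036 against the ependyma, with 1 member, 1065 against the subfornical organ and 1054 against the subcommissural organ. Against total brain 1423 were in the subcommissural organ, with 3 members, 875 in the subfornical organ, with 3 members, and 887 in the ependyma, with 1 member. The subfornical organ also had 3 members past 4-fold after quantile normalization and with arrays scaled to a common 75th percentile, and the ependyma 1 member with a common 75th percentile. The cause of the other moves was not tested. The single arrays of all tissues but the pineal gland, the unstated background correction and values near background limit every difference given.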
